A study of Sus scrofa with 4 samples.

Results

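JAK1, IL6ST, STAT3, STAT4, STAT5A, STAT5B and STAT6 were the 7 genes examined here in the thymus of IL2RG KO and wildtype pigs. They carry cytokine signals from the receptor to the nucleus. Members were all array probes whose RefSeq identifier in the scanner output belonged to 1 of these genes, which gave 19 probes of 7 genes among 6686 named probes of 3020 genes and 43603 probes in all. JAK1 had 5 probes, STAT3 had 4, and each of the other 5 genes had 2. The rule itself used identifiers and no measured value.

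Thymus samples were measured on 4 arrays of Agilent, 2 labelled IL2RG+/- and 2 labelled wildtype, all from Minnesota miniature swine and 1 to an array. The KO animals carried the monoallelic allele mIL2RG+/Δ69-368, which was made with TALEN in donor cells that were then used for cloning, and KO thymus could be sampled only where an animal had formed a rudimentary thymus. WT denotes the wildtype pigs. No treatment was given in the labels, and neither age nor sex of these animals was. The labels number the samples as replicates of a genotype and do not say more about separate animals, so that p-values measure the spread between these samples alone.

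Cytokine receptors of this kind have no enzyme activity of their own. Janus kinases such as JAK1 are bound to their inner part, phosphorylate each other and the receptor once a cytokine binds, and so create docking sites for STAT proteins, which are phosphorylated in turn, pair and enter the nucleus as transcription factors. JAK1 serves both the common gamma chain receptors, whose shared subunit IL2RG encodes, and the receptors built on gp130, the product of IL6ST and the signalling subunit for interleukin-6 and its relatives. STAT5A and STAT5B are the main STATs downstream of interleukin-2 and interleukin-7, STAT6 acts downstream of interleukin-4, STAT4 downstream of interleukin-12, and STAT3 downstream of gp130 and interleukin-21. In the thymus, interleukin-7 acting through IL2RG is known to sustain early thymocytes.

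On a 1-colour array the brightness of a spot follows the amount of matching mRNA. Each signal below is given on a log2 scale relative to the 75th percentile of its array, so that 0 is the brightness that 75% of probes did not exceed, and a difference of 1 is a doubling. The share of probes well above background was 74.5% and 73.5% with KO samples and 67.9% and 68.1% with WT samples, and no spot was saturated. Slide 1 held KO replicate 1 with WT replicate 2, and slide 2 held the other two arrays. All 19 member probes were well above background on all 4 arrays, were not marked as outliers, and were tested with limma together with all 31959 probes that passed the filter on dim probes. "Rose" and "fell" are used for a Benjamini-Hochberg adjusted p under 0.05 over all tested probes, and "called" for that p with a change of at least 2-fold. IL2RG itself, the targeted gene, was 10.7-fold lower in KO (limma, adjusted p = 0.00256), and both of its probes were called lower.

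The 7 genes did not move together. IL6ST and STAT3 rose on all of their probes, JAK1 fell on 4 of its 5 probes and STAT5B fell on 1 of its 2. No probe of STAT4, STAT5A or STAT6 passed the test. Of the 19 probes 4 were called higher, 2 of IL6ST and 2 of STAT3, where 21% of all tested probes were called higher. STAT5B supplied the 1 probe called lower, where 13% of all tested probes were. By the adjusted p alone 6 member probes rose, against 25.3% of all tested probes, and 5 fell, against 22.8%. On 16 of the 19 probes the KO arrays did not overlap with the WT arrays, which was also true of 78.7% of all tested probes. The median log2 fold change of the 19 probes was -0.07, beside -0.06 over all tested probes. Among 19 probes, 1 call on the lower side is too small a count to set apart from a share of 13%. The other counts were near the shares of the whole array.

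**Figure D1:**
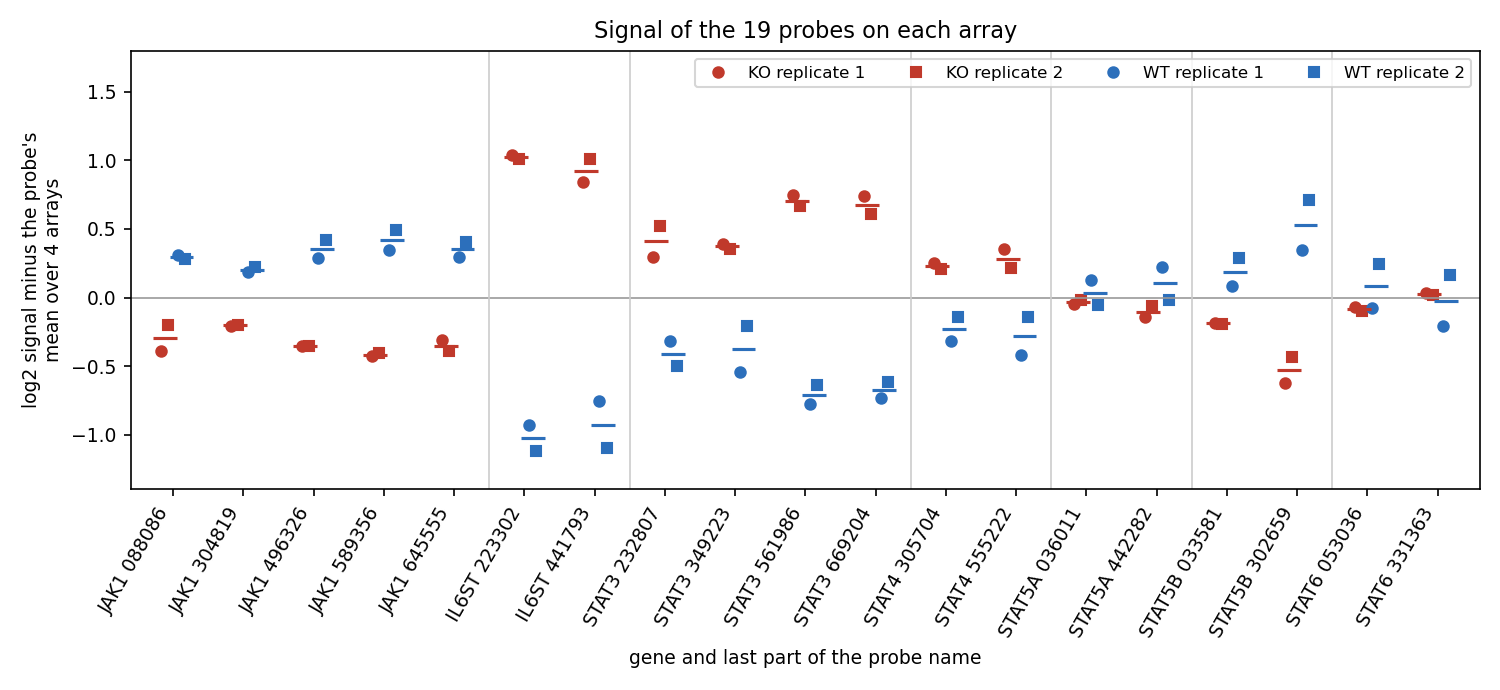
Log2 signal of each of the 19 probes on the 4 arrays, on the y axis as the difference from that probe's own mean over the arrays, with probes on the x axis grouped by gene. Circles are replicate 1 and squares replicate 2, red is KO and blue is WT, and short lines are group means; the KO points of IL6ST and STAT3 lie above the WT points on every probe and those of JAK1 below them, while KO and WT overlap on both STAT6 probes and 1 STAT5A probe.

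IL6ST, the gp130 receptor subunit, had the largest change among the 7 genes. On the brighter probe, A_72_P223302, KO signals were 1.62 and 1.60 and WT signals -0.35 and -0.53. Before any scaling these were 2344 and 2103 signal units against 488 and 480. Both KO arrays were thus several times brighter than either WT array, and the replicates of a genotype lay close together. The rise was 2.05 ± 0.16 on the log2 scale (SE, n = 2 arrays per genotype), or 4.14-fold, with an adjusted p of 0.00255 from limma. The dimmer probe, A_72_P441793, read -0.69 and -0.51 in KO against -2.28 and -2.63 in WT, a rise of 1.85 ± 0.20 (SE, limma, adjusted p = 0.00434). The changes of the 2 probes differed by 0.20, with a 95% interval from -0.12 to 0.52. Within slide 1 the rise of the brighter probe was 2.16 and within slide 2 it was 1.94. Without KO replicate 1, without KO replicate 2 and without either WT array both probes were still called higher.

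JAK1, the kinase shared by the common gamma chain and gp130 receptors, was lower in KO. The study, by western blot of thymus, found its protein unaltered, which is a measure other than mRNA. Its brightest probe, A_72_P088086, read 4.99 and 5.19 in KO against 5.69 and 5.66 in WT. Unscaled signals of this probe were 24279 and 25290 units in KO against 32054 and 35226 in WT, and the order of the genotypes was thus the same before scaling. The log2 fold change was -0.59 ± 0.16 (SE, limma, adjusted p = 0.0419). On A_72_P496326 the signals were 4.28 and 4.28 in KO against 4.93 and 5.06 in WT, a change of -0.71 (limma, adjusted p = 0.0227). A_72_P645555 read 3.98 and 3.90 in KO against 4.59 and 4.70 in WT, a change of -0.70 (limma, adjusted p = 0.0238). All of these were falls, none of them 2-fold. The largest fall was that of A_72_P589356, from 3.20 and 3.35 in WT to 2.43 and 2.45 in KO, a change of -0.84 (limma, adjusted p = 0.0155). The fifth probe, A_72_P304819, read 5.08 and 5.09 in KO against 5.47 and 5.51 in WT, and its change of -0.41 had an adjusted p of 0.0848 in limma. KO and WT arrays did not overlap on any of the 5 JAK1 probes. None of the 10 pairs of JAK1 probes differed in their change after adjustment over the same-gene probe pairs of all named genes, of which 3.97% did. The same held for all 21 same-gene pairs of the 7 genes in limma, although 9 of them had an unadjusted p under 0.05.

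The size of the JAK1 fall depended on how the arrays were scaled and on single arrays. Over 4 other ways of scaling or background correction it stayed below 0 on every probe, between -1.10 and -0.20 on the log2 scale. With quantile normalization only A_72_P589356 of the 4 passing probes still passed among the JAK1 probes (limma), and without any scaling none of them did (limma, adjusted p from 0.0539 to 0.134 for these 4). With scaling to the median all 5 JAK1 probes passed, with adjusted p from 0.00835 to 0.0252 in limma, and A_72_P589356 was called lower at -1.10. The fifth probe, A_72_P304819, also passed when limma's spread followed the signal level (intensity trend, adjusted p = 0.0231). A_72_P088086 no longer passed with the slide as a block (limma, adjusted p = 0.052) or without the filter on dim probes (limma, adjusted p = 0.0781). Without KO replicate 1 or without KO replicate 2 no JAK1 probe passed, with adjusted p from limma between 0.132 and 0.303 for the 4. A_72_P088086 also no longer passed without WT replicate 1 or without WT replicate 2 (limma, adjusted p = 0.0563 and 0.058).

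**Figure D2:**
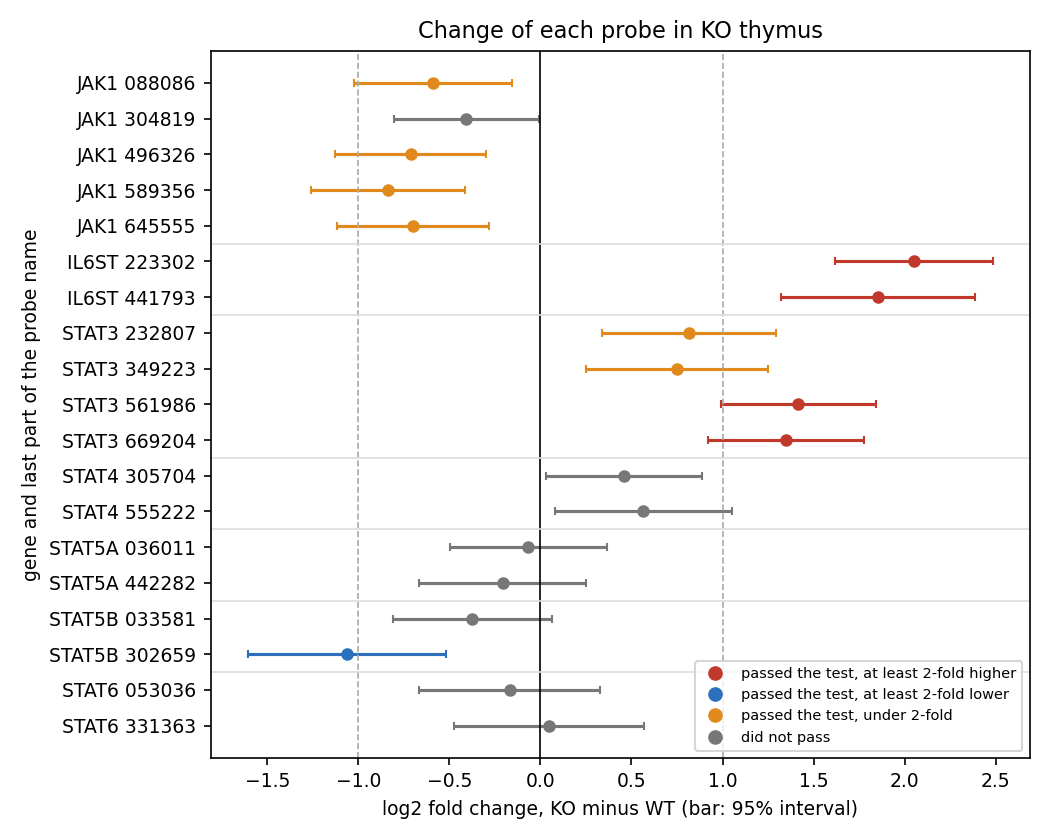
Log2 fold change of each probe, KO minus WT, on the x axis, with its 95% interval from limma and the probes listed by gene on the y axis; dashed lines mark 2-fold. Both IL6ST probes lie right of the 2-fold line at 2.05 and 1.85, the 5 JAK1 probes lie between -0.84 and -0.41, and the probes of STAT5A and STAT6 have intervals that include 0.

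STAT3, the STAT best known downstream of gp130, rose on all 4 probes. The study reported higher STAT3 mRNA in KO pigs by RT-qPCR, in spleen and in a further panel for which its text names no tissue. By western blot it reported less total STAT3 protein in KO thymus. A_72_P561986 read -0.62 and -0.70 in KO against -2.14 and -2.00 in WT, a rise of 1.42 ± 0.16 (SE, limma, adjusted p = 0.00477) or 2.67-fold. A_72_P669204 read -1.12 and -1.25 in KO against -2.59 and -2.48 in WT, a rise of 1.35 ± 0.16 (SE, limma, adjusted p = 0.00533) or 2.55-fold. On both, the KO arrays stood more than 1 log2 unit above the WT arrays. The other 2 probes rose by less than 2-fold. A_72_P232807, the brightest by mean signal, read -1.03 and -0.81 in KO against -1.65 and -1.83 in WT, a rise of 0.82 ± 0.18 (SE, limma, adjusted p = 0.0228). A_72_P349223 read -1.23 and -1.27 in KO against -2.17 and -1.84 in WT, a rise of 0.75 ± 0.19 (SE, limma, adjusted p = 0.0324). STAT3 thus had 2 probes with a larger and 2 with a smaller rise, and the largest gap between them, 0.67 on the log2 scale with a 95% interval from 0.39 to 0.94 for the larger minus the smaller, had an adjusted p of 0.0586 in limma. All 4 probes were dim, between 103 and 497 signal units over the 4 arrays. A_72_P561986 rose under every way of scaling and with each array left out. A_72_P669204 lost its call without KO replicate 1 (limma, adjusted p = 0.055), and with the normexp background correction it rose by 0.97, just under 2-fold. A_72_P232807 and A_72_P349223 no longer passed without KO replicate 1, without KO replicate 2, or with scaling to the median of each array (limma, adjusted p = 0.0529 and 0.102 for the last). The second of them also did not pass without the filter on dim probes (limma, adjusted p = 0.0593).

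STAT4, the STAT of interleukin-12 signalling, was higher on both KO arrays than on both WT arrays with each of its probes, but neither passed the test. The study itself reported STAT4 mRNA as down-regulated in KO pigs, citing RT-qPCR and also a chart drawn from its thymus arrays. A_72_P305704 read -0.51 and -0.55 in KO against -1.08 and -0.90 in WT, a difference of 0.46 with a 95% interval from 0.03 to 0.89 (limma, adjusted p = 0.075). A_72_P555222 read -2.04 and -2.18 in KO against -2.82 and -2.54 in WT, a difference of 0.56 with an interval from 0.08 to 1.05 (limma, adjusted p = 0.0617). With the scaling used in the text both intervals lay above 0 before adjustment over all probes and did not include a fall. The differences depended on the scaling. They were 0.20 and 0.31 with scaling to the median (limma, adjusted p = 0.371 and 0.243), and 0.61 and 0.71 without scaling. Without WT replicate 2 the second probe was at 0.70, and without WT replicate 1 it was at 0.43.

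STAT5A and STAT5B, close relatives that serve the interleukin-2 and interleukin-7 receptors, differed in their change when the brightest probe of each was compared. For STAT5B, A_72_P302659 read 1.25 and 1.44 in KO against 2.22 and 2.59 in WT, from unscaled signals of 1809 and 1884 units against 2895 and 4173. It fell by 1.06 on the log2 scale, with an SE of 0.20, and was 2.09-fold lower in KO (limma, adjusted p = 0.0164). Within slide 1 the change was -1.34 and within slide 2 it was -0.78. WT replicate 2 stood above WT replicate 1, and without it the change was -0.88, which passed the test without reaching 2-fold. Without KO replicate 1 or 2 the probe did not pass (limma, adjusted p = 0.117 and 0.0858). The second STAT5B probe, A_72_P033581, was dim and read -2.14 and -2.15 in KO against -1.87 and -1.67 in WT. Its change of -0.37 had a 95% interval from -0.81 to 0.06 (limma, adjusted p = 0.125). The 2 STAT5B probes differed in their change by 0.69, with a 95% interval from 0.36 to 1.01, which did not pass after adjustment over all probe pairs (limma, adjusted p = 0.0768).

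For STAT5A, A_72_P036011 read -0.32 and -0.29 in KO against -0.15 and -0.33 in WT, and the genotypes overlapped. Its difference of -0.07 had a 95% interval from -0.50 to 0.36 (limma, adjusted p = 0.756). A_72_P442282 read -1.92 and -1.84 in KO against -1.55 and -1.79 in WT, a difference of -0.21 with an interval from -0.67 to 0.25 (limma, adjusted p = 0.37). Neither interval reached 2-fold in either direction. The change of STAT5A exceeded that of STAT5B by 0.99 on the log2 scale (95% interval 0.32 to 1.67, limma, adjusted p = 0.0256), taken between the brightest probe of each gene. The dimmer STAT5B probe, A_72_P033581, changed by -0.37 and was not set against STAT5A. STAT3, STAT5A and STAT5B were consecutive protein-coding genes on chromosome 12 in RefSeq's annotation of the pig assembly Sscrofa11.1. These 3 neighbours showed a rise on all probes, no probe past the test, and a fall on 1 of 2 probes, respectively.

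STAT6, the STAT of interleukin-4 and interleukin-13 signalling, had KO and WT arrays that overlapped on both probes. A_72_P331363 read -0.42 and -0.44 in KO against -0.67 and -0.29 in WT, a difference of 0.05 with a 95% interval from -0.47 to 0.57 (limma, adjusted p = 0.854). A_72_P053036 read -2.62 and -2.65 in KO against -2.62 and -2.30 in WT, a difference of -0.17 with an interval from -0.66 to 0.33 (limma, adjusted p = 0.492). As for STAT5A, the intervals lay inside 2-fold both ways. The WT arrays were the more spread of the 2 genotypes. On 16 of the 19 member probes the WT replicates lay further apart than the KO replicates, as they did on 68.6% of all tested probes. Over the member probes the median gap was 0.18 in WT against 0.04 in KO on the log2 scale. Over all tested probes it was 0.30 against 0.16.

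The choice of scaling moved the median log2 fold change of all tested probes from -0.06 to 0.09 without scaling, -0.14 with quantile normalization and -0.32 with scaling to the median. A single scaling factor shifts all probes of an array together, whereas quantile normalization moved JAK1 A_72_P088086 upward, to -0.37, and STAT5B A_72_P033581 downward, to -0.51. The share of calls that were higher in KO was 61.7% of all calls, 70.1% without scaling, 56.1% with quantile normalization and 47.8% with scaling to the median. IL6ST and STAT3 were above 0 and JAK1 and STAT5B below 0 on every probe under each of these. The sign of 1 STAT5A probe and 1 STAT6 probe turned with the scaling, from -0.33 to 0.08 for A_72_P036011 and from -0.21 to 0.20 for A_72_P331363.

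**Figure D3:**
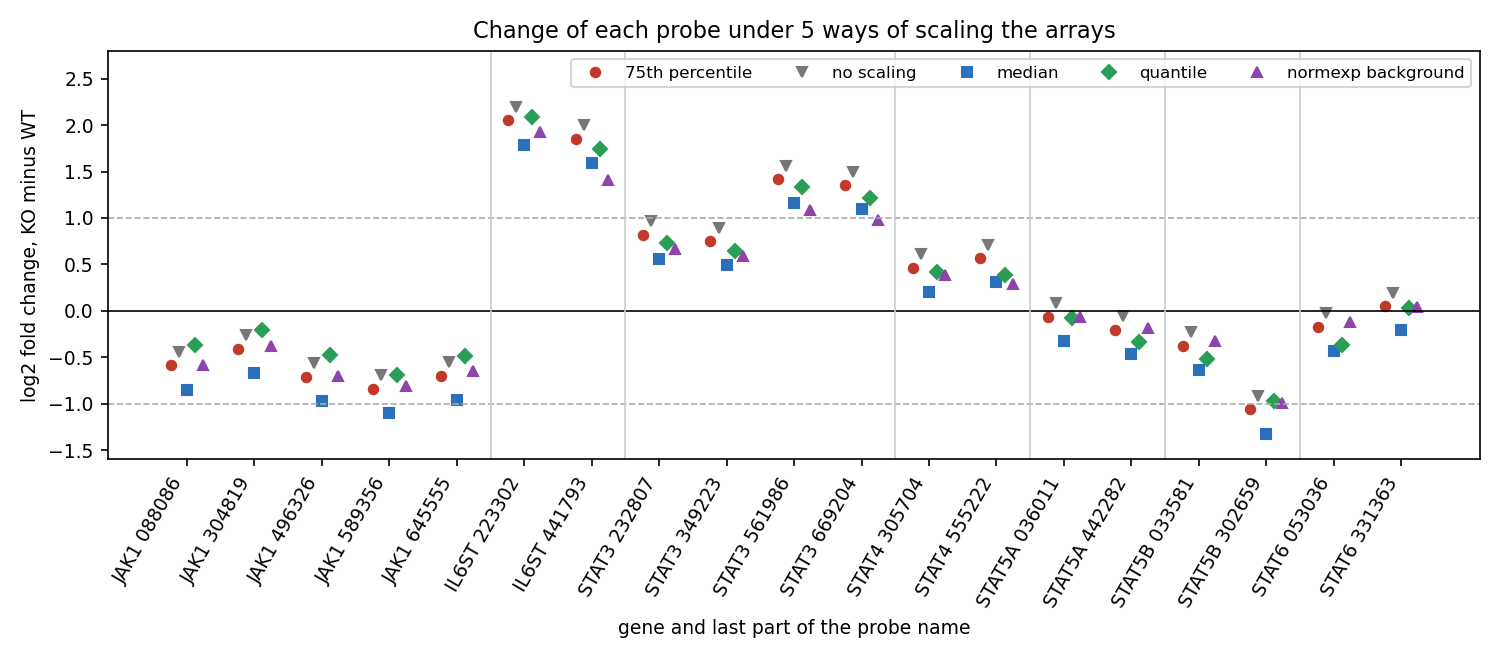
Log2 fold change of each probe, KO minus WT, on the y axis under the 75th percentile scaling used in the text and 4 other settings, with probes on the x axis grouped by gene and dashed lines at 2-fold. IL6ST keeps values between 1.41 and 2.20, the JAK1 probes stay between -1.10 and -0.20, and A_72_P036011 of STAT5A and A_72_P331363 of STAT6 have points on both sides of 0.

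A difference between 2 genes within each array does not depend on how that array was scaled by a single factor. The change of each member, taken from its brightest probe, was therefore set against that of every other named gene, and limma called 61.4% of these 18886 pairs different at an adjusted p under 0.05. Of the 21 pairs among the 7 genes 13 differed. On the brightest probes IL6ST rose more than each of the other 6 genes. Its margin was 1.23 over STAT3 (95% interval 0.71 to 1.75, limma, adjusted p = 0.00627) and 3.11 over STAT5B (2.42 to 3.80, limma, adjusted p = 0.00144). STAT3 was represented here and below by A_72_P232807, with a rise of 0.82. Its probes A_72_P561986 and A_72_P669204 rose more, by 1.42 and 1.35, and were not set against other genes. The size of each STAT3 difference thus depends on the probe chosen. JAK1 and IL6ST, a kinase and a receptor subunit that work in the same complex, differed by 2.64 (2.11 to 3.16 for IL6ST minus JAK1, limma, adjusted p = 0.00135).

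Among the STATs, STAT3 exceeded STAT5A by 0.88 (0.38 to 1.39, limma, adjusted p = 0.0148) and STAT5B by 1.88 (1.21 to 2.54, limma, adjusted p = 0.00386). STAT4 exceeded STAT5B by 1.52 (0.98 to 2.06, limma, adjusted p = 0.00385) although STAT4 itself did not pass the test of KO against WT. STAT6 exceeded STAT5B by 1.11 (limma, adjusted p = 0.00781). STAT5B was represented in all of these pairs by A_72_P302659, which changed by -1.06. Its other probe, A_72_P033581, changed by -0.37, did not pass the test and was not set against other genes. The size of each STAT5B difference thus also depends on the probe chosen. STAT3 and STAT6 differed by 0.77 with an interval from 0.07 to 1.47 that did not pass (limma, adjusted p = 0.0589), and STAT3 and STAT4 by 0.36 with an interval from -0.25 to 0.96 (limma, adjusted p = 0.233). JAK1 lay below STAT3 by 1.41 and below STAT4 by 1.05 on the log2 scale, with adjusted p of 0.00378 and 0.0112 in limma. JAK1 and STAT5B, the 2 genes that fell, differed by 0.47 with an interval from -0.11 to 1.05 (limma, adjusted p = 0.122). Without KO replicate 1 the number of pairs that differed was 8 of 21, and over the other left-out arrays it was between 9 and 16.

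**Figure D4:**
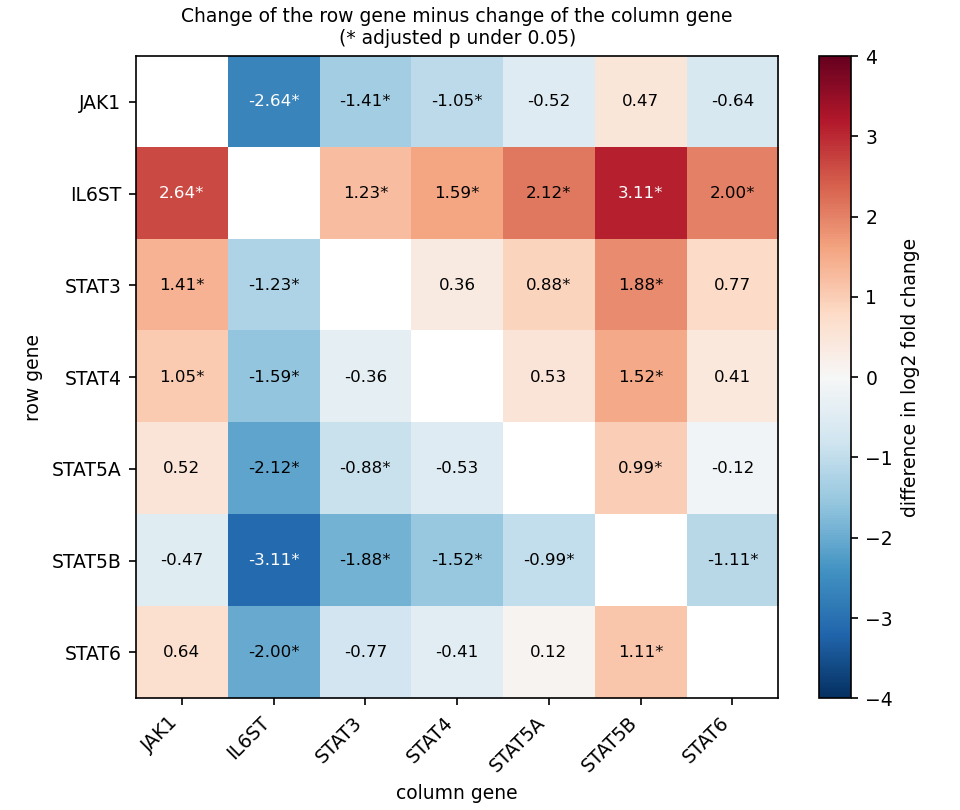
Difference in log2 fold change between the gene of each row and the gene of each column, each taken from its brightest probe; colour and number give the same value, red where the row gene changed upward relative to the column gene, and an asterisk marks an adjusted p under 0.05 in limma. The IL6ST row holds 6 marked values from 1.23 to 3.11, and the STAT5B row is negative throughout, with the value against JAK1, -0.47, unmarked.

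Over the 4 arrays, the named genes with the smallest distance to a member's pattern, measured on log2 signals centred on each gene's mean among 2513 other named genes, were as follows. For JAK1 they were TPI1, a glycolytic enzyme, at a distance of 0.0247 and PYGL, a glycogen phosphorylase, at 0.0268. For IL6ST they were APP, the amyloid precursor protein, at 0.0246 and SLA-DOA, a class II histocompatibility chain, at 0.0397. STAT3 lay nearest to TIMP1, an inhibitor of metalloproteinases, at 0.0441 and to the protease CTSK at 0.0833. STAT5B lay nearest to ARF3, a small GTPase of the Golgi, at 0.0641 and STAT4 to the zinc transporter SLC30A9 at 0.0264. STAT5A was nearest to TRMT10A at 0.0484 and STAT6 to FKBP4, a co-chaperone, at 0.0256. Distances over 4 arrays describe likeness of pattern in these samples alone.

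The other genes of the pathway were taken from a list of 81, of which 37 were named and tested, each by its brightest probe. Of these, 10 were called higher and 7 lower, beside 680 higher and 341 lower of 2702 named genes. The median log2 fold change was 0.34 in the list and -0.00 over all named genes. IL2RG, IL12RB1, CCND3, BCL2L1, GATA3, GHR, IFNGR2 and IL13RA1 were among the genes that the study singled out from its arrays, so that their directions are not independent evidence for the list, and IL6ST was singled out there too. Without KO replicate 1 the number called higher was 6 and without KO replicate 2 it was 5.

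STAT2, which acts in interferon signalling, rose by 0.96 (limma, adjusted p = 0.0109), short of 2-fold. The kinases JAK2 and TYK2 had differences of 0.71 and -0.09 and did not pass. Of the pathway's inhibitors 6 were tested. SOCS4 was called lower, at -1.06 (limma, adjusted p = 0.0198), but was short of 2-fold without scaling, at -0.91, and with normexp, at -0.84. SOCS3, which binds gp130 and is itself a STAT3 target, had a difference of 0.61 that did not pass (limma, adjusted p = 0.0789). Its probe was dim, at 36.6 and 46.1 signal units in KO against 22.1 and 26.5 in WT. Over the scalings its difference ranged from 0.16 with normexp to 0.76 without scaling.

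Of the gp130 cytokines 3 were tested and 2 were called higher. IL6 was 3.06-fold higher in KO (log2 1.61, limma, adjusted p = 0.0052) and IL27 3.80-fold higher (log2 1.93, limma, adjusted p = 0.015), while LIF, at -0.45, did not pass. With the normexp background correction IL6 was at 0.90, short of 2-fold. IL6R, the specific interleukin-6 receptor and the 1 tested gp130 family receptor, had a difference of 0.31 by its brightest probe (limma, adjusted p = 0.191), and its other 2 probes were called higher. Among the common gamma chain receptors IL2RA rose by 1.26 and IL4R by 0.68, while IL7R changed by -1.56 and was called lower beside IL2RG. IL2RA was short of 2-fold with quantile normalization, at 0.94, and with normexp, at 0.39. The IL2RA probe was dim, at 51.1 and 61.1 signal units in KO against 23.8 and 18.6 in WT. By RT-qPCR the study saw no change of IL2RA mRNA. Of 10 other cytokine receptors GHR, IL13RA1, IFNGR2 and IL10RB were called higher and IL12RB1 lower, with IL13RA1 at 2.28, or 1.15 with normexp.

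Transcriptional targets went both ways, with 3 of 10 called higher and 3 lower. CEBPB and IRF1, transcription factors induced by cytokine signals, rose by 1.88 and 1.70 and the cyclin CCND2 by 1.34. GATA3, a T-cell transcription factor, changed by -3.72, the cyclin CCND3 by -2.58 and the survival gene BCL2L1 by -2.48, all called lower. With normexp CEBPB was at 0.70 and was not called, and BCL2L1 was at -1.20. MYC, FOXP3, HIF1A and FOS did not pass, with differences between -1.06 and 0.57.

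**Figure D5:**
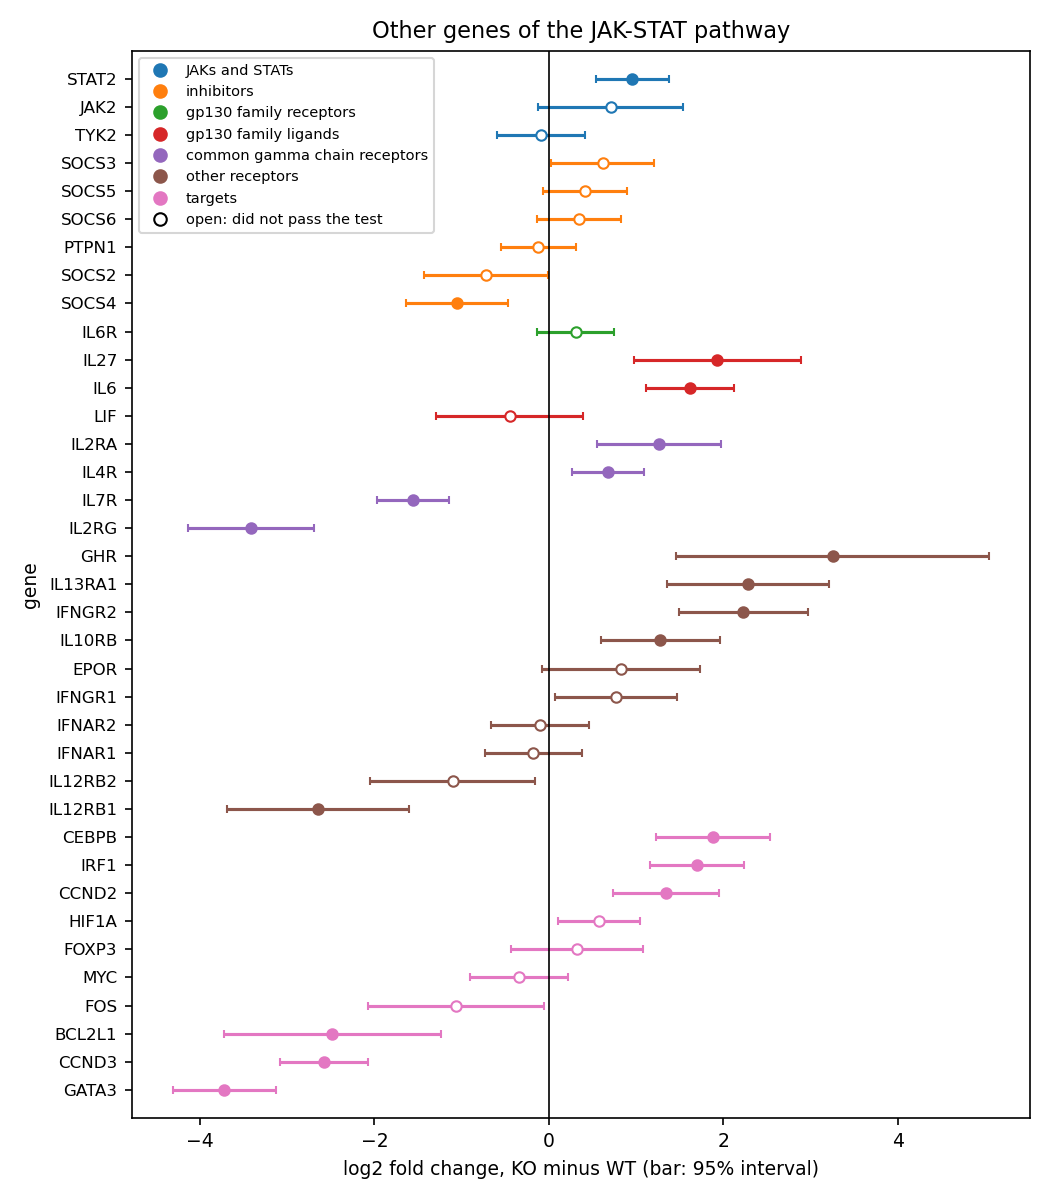
Log2 fold change of the brightest probe of each of 37 other pathway genes, KO minus WT, on the x axis, with the 95% interval from limma and genes on the y axis coloured by their group; filled points passed the test. GHR lies at 3.25 and IL6 at 1.61 on the higher side, and IL2RG at -3.41 and GATA3 at -3.72 on the lower side.

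Whole thymus tissue was measured, so that fewer cells of a type and less RNA per cell cannot be told apart. Markers of thymocytes, the developing T cells that make up most of a normal thymus, were lower in KO on all 14 of 14 tested genes, with a median log2 fold change of -2.80. Their summed signal, in multiples of the array's 75th percentile, was 40.1 and 38.8 in KO against 255 and 341 in WT. RAG2, a recombinase gene of early thymocytes, was well above background on 3 of 4 arrays. Markers of macrophages were called higher on 10 of 10 tested genes, with sums of 307 and 380 in KO against 82.2 and 60.9 in WT. Fibroblast markers were called higher on 4 of 4, endothelial markers on 5 of 6, thymus epithelium markers on 2 of 3, adipocyte markers on 3 of 6 and NK-cell markers on 2 of 3, and none of these 5 lists had a gene called lower. The NK-cell markers called higher were KLRK1 and NKG7, while GZMB, at -0.76, did not pass (limma, adjusted p = 0.111). The study reported NK cells as absent from KO pigs by tissue staining. By RT-qPCR it also reported lower mRNA of genes of NK-cell development, with thymus among the tissues. Of 3 tested B-cell markers CD40 was called higher, at 2.10, and MS4A1 and CD79A were called lower, at -3.45 and -3.47. MS4A1 was well above background on 3 of the 4 arrays. IL6ST and STAT3 rose, and JAK1 and STAT5B fell, in the same arrays in which these lists moved. The part of these cell types in the members' changes was not tested.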

How the data were processed

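Thymus RNA of 2 KO and 2 WT samples was hybridised to 1-colour Agilent arrays. The intensity values were deposited by the authors as output of Agilent Feature Extraction 11.0.1.1 (per the file headers and the submitters' processing notes), with background subtracted and no normalization between arrays. The authors also deposited log2 values, which on comparison were quantile normalized signals of 27974 probes, those well above background throughout; this table served as an alternative. The methods describe 2 dyes, whereas the labels and the scanner output hold Cy3 alone.

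Controls and outlier spots were removed, which left out 6 of 43603 probes. Spots of a probe were averaged, log2 signals were taken relative to the array's 75th percentile, and 31959 probes, each well above background in both samples of KO, of WT or of both, were fitted with limma 3.58.1 in R 4.3.3 (lmFit and eBayes, Benjamini-Hochberg). Figures were drawn in Python 3.11.15 from pandas 2.3.3 tables by matplotlib 3.10.9. Differences between probes were fitted on the log2 difference within each array, over 10105 probe pairs of named genes for the same gene and over 18886 pairs of a member and another named gene. A gene stood for its brightest tested probe. All member probes are named, and other genes come from lists of the pathway and of cell type markers. A few genes of these lists are not reported here, and the lists were counted without them. Likeness was the Euclidean distance over 4 arrays among named genes well above background throughout. An unpaired t-test, corrected by Bonferroni as the study did, is called the methods' t-test. The procedure was tested on simulated data. Alternatives were other scalings, normexp with an offset of 50, other filters on dim probes, slide or replicate blocks, an intensity trend, that t-test and each array left out.

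RefSeq's gene table of Sscrofa11.1 named 6686 of the 7111 probes with a RefSeq identifier; the build of the array design is not given in the sources used here, and no coordinates are given. The members, lists and tests were chosen with earlier results of these data known. With 2 arrays per genotype the smallest two-sided exact permutation p is 0.333, so the p-values rest on a spread that limma pools over probes, and the number of arrays limits the precision. The slide was taken from the scanner headers.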

Additional observations from a re-analysis of the deposited data

How the results depend on the processing

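Over 17 alternatives no member probe that passed the test changed sign. IL6ST A_72_P223302 ranged from 1.79 to 2.20 and STAT3 A_72_P561986 from 1.09 to 1.56 on the log2 scale. The 1 member probe called lower became 0 without scaling, with quantile normalization, with normexp and with the deposited log2 values, and 2 with scaling to the median. Member probes that fell by adjusted p alone numbered 5; they were 1 without scaling, 2 with quantile normalization, 2 with the deposited log2 values, 4 without the filter on dim probes, 6 with an intensity trend and 7 with scaling to the median. Over all probes, scaling to the median gave 6334 called lower, and normexp gave 3909 higher and 2702 lower, against 6712 and 4170.

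The replicate block left 1 member probe that fell by adjusted p: the 4 JAK1 probes no longer passed (limma, adjusted p from 0.0528 to 0.12), nor did STAT3 A_72_P232807 and A_72_P349223 (limma, adjusted p = 0.0672 and 0.0795). Samples of the same number deviated in opposite directions (r = -0.29), and the labels do not say that the numbers pair animals; pairing by slide, which crosses the numbers, gave 6887 probes called higher and 4237 lower, and 6 member probes that rose and 4 that fell.

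The methods' t-test, which has few degrees of freedom here, gave 5098 probes higher and 3513 lower at 2-fold unadjusted, of which 4 and 1 were members. After Benjamini-Hochberg adjustment it gave 722 and 783, with 1 member called higher and 0 lower, and 1 member past the adjusted p in each direction. After the Bonferroni correction it gave 0 probes in either direction, at an unadjusted p under 0.05 for 13771.

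With 1 array left out, all probes called higher ranged from 4012 to 7566 and lower from 2081 to 5147. Member probes called lower ranged from 0 to 1, those past the adjusted p from 3 to 7 upward and from 0 to 4 downward, differing member gene pairs from 8 to 16, and pathway genes called higher from 5 to 12. The lone sample of a genotype was then assumed to vary like the other group. Several STAT probes were dim, and the dimmest member spot stood 4.19 times over its local background.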
